A study of Mus musculus with 120 samples.

Results

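VA and VL are the ventral anterior and ventrolateral nuclei of the mouse motor thalamus, and the comparison sets 8 RNA-seq libraries of VA neurons against 6 of VL neurons, 14 of 120 libraries in a series that covers 22 thalamic nuclei. The members were taken by library title, that is by nucleus, tracer and target, and not by any measured value. Every one of the 14 libraries holds neurons that carried DiI, a membrane dye that travels along axons, back from the primary motor cortex (M1), and every one is also recorded with viral axon labelling of SNr and DCN (virus_SNr_DCN), so VA and VL share tracer, target and that record. Cells were picked by hand from microdissected tissue, 30 to 66 per VA library (median 39) and 27 to 51 per VL library (median 34.5), and amplified without molecular identifiers. The VA libraries came from 1 animal each, aged 87 to 182 days, 7 of them recorded as wild type and 1, VA replicate 6, as 33.7-Gad2. The VL libraries came from wild-type animals aged 87 to 163 days. VL replicates 2 and 3 each pooled cells of 2 animals, and the pool of VL replicate 3, recorded as wild type, includes the animal recorded as 33.7-Gad2 in VA. In 3 sets of animals both nuclei were collected: VA replicate 1 with VL replicate 1, VA replicates 2 and 3 with VL replicate 2, and VA replicates 6 and 8 with VL replicate 3. A neighbouring nucleus, VM (ventromedial), has 6 libraries with the same dye and target and is used below only as a point of reference for levels. The VM animals were recorded as wild type and aged 95 to 112 days, with no age given for VM replicate 1. By the records 3 VM libraries are male and 3 female, and 4 were amplified on 20150806 and 2 on 20150901.

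Motor thalamus relays subcortical signals to motor cortex. VA is known mainly as a target of the inhibitory output of the basal ganglia, and VL mainly as a target of the excitatory output of the cerebellum, although the borders between these inputs are not sharp in rodents. Thalamic relay cells are glutamatergic, switch between tonic and burst firing, and in primates have been divided into calbindin-rich and parvalbumin-rich classes with different cortical projections.

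Total counts were 16876517 to 22113625 per VA library and 15380685 to 20615055 per VL library, and 12035 to 14203 genes were detected in VA and 12980 to 14081 in VL. Neither total counts, genes detected nor cells per library differed beyond the spread between libraries (exact permutation tests of the mean, two-sided, p = 0.719, 0.268 and 0.462, adjusted p = 0.719, 0.692 and 0.692 over the 3). Of 43 pairs of libraries within a nucleus none were identical. Markers of thalamic projection neurons, all 8 in the table, summed to 8747 to 13190 CPM (read counts scaled to a common library size after TMM scaling) in VA and 10260 to 11670 CPM in VL. Oligodendrocyte markers, 11 of 13 in the table, summed to 16.8 to 4344 CPM in VA (median 107), with VA replicate 3 at 4344 and VA replicate 8 at 676 CPM, and to 9.59 to 243.8 CPM in VL (median 34.3). Of the other lists few members are in the table: Aldoc alone of 9 astrocyte markers stood at 5.08 to 349 CPM in VA and 105 to 277 CPM in VL, 3 of 10 markers of inhibitory neurons summed to at most 18.9 CPM in VA and 27.0 CPM in VL, 3 of 10 microglial markers to at most 50.02 and 22.2 CPM in VA and VL, Bsg alone of 11 vascular markers stood at 104 to 503 CPM in VA and 223 to 419 CPM in VL, and Gpr151 alone of 8 habenular markers at up to 11.6 CPM in VA and 3.74 CPM in VL. No marker of the glial, vascular, inhibitory or habenular lists was called with edgeR's test, but 8 of the 11 oligodendrocyte markers were at an unadjusted p under 0.05, with a median log2 of 3.86, as was Aldoc, with a log2 of -1.30. Values without the 2 VA libraries highest in oligodendrocyte markers are given with the other subsets, and the part of the other lists was not tested. By the records 7 VA libraries are female and 1 male, and 2 VL libraries are female, 3 male and 1 mixed. The RNA went against this in part: 4 Y-linked genes (Ddx3y, Eif2s3y, Kdm5d and Uty) summed to at most 0.524 CPM in VA and to 165 and 196 CPM in VL replicates 5 and 6, but to at most 0.678 CPM in the other VL libraries, so that VA replicate 8 and VL replicate 4, both recorded as male, held Xist and almost no Y-linked reads. Sex and nucleus are therefore partly confounded, with Y-linked reads in 0 of 8 VA and 2 of 6 VL libraries.

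The promoters of 3 genes that differed between the nuclei are shown because the genes stood on opposite sides of the comparison: Calca and Kcne4 had almost all of their reads in VA and in VL libraries, and Rorb encodes the nuclear receptor ROR beta, a transcription factor whose family binds the half-site AGGTCA as a monomer. The windows run from 250 bases before to 50 bases after the RefSeq start on GRCm38.p6, at chr7:114636308-114636607 (minus strand) for Calca, chr1:78816661-78816960 (plus strand) for Kcne4 and chr19:19111147-19111446 (minus strand) for Rorb, and capitals mark AGGTCA on either strand.
Calca: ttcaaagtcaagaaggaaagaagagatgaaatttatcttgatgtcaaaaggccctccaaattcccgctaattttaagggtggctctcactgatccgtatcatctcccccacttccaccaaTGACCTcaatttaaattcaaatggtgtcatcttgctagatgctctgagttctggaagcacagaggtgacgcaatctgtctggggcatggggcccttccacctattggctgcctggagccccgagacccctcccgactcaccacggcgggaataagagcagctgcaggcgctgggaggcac
Kcne4: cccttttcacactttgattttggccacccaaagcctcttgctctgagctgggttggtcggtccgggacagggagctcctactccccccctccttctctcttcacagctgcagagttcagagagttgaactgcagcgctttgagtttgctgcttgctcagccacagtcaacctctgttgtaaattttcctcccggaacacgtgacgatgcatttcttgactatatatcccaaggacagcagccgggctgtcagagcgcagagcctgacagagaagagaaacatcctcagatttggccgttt
Rorb: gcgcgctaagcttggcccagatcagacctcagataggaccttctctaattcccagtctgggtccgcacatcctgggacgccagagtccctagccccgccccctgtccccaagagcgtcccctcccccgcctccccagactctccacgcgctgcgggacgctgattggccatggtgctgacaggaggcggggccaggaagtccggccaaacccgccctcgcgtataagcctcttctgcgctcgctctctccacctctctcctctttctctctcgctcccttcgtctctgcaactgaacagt
The Calca window held 1 match, on the reverse strand (TGACCT), and the other two held 0. AGGTCA or TGACCT occurred in 18 of 205 windows (8.78%) of genes called higher in VA and in 11 of 93 windows (11.8%) of genes called lower in VA, against 1491 of 12305 windows (12.1%) of all genes tested and 5340 of 32851 (16.3%) of all windows in the table. The windows belong to 150 of the 226 genes called higher and 70 of the 139 called lower. The match is a description of the letters and says nothing of binding.

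Of 16527 genes tested with edgeR's quasi-likelihood F test, 226 (1.37%) were called higher in VA than in VL and 139 (0.841%) lower, at a Benjamini-Hochberg adjusted p under 0.05. Among the genes called higher were Calb1, Necab1, Scn3b and Ncam1, and among those called lower were Rorb, Pvalb, Kcnc1 and Nefm. The median log2 of VA over VL across all genes was 0.09. The mean of the higher nucleus reached 10 CPM or more for 174 of the genes called higher and 76 of those called lower. In 68 of the genes called higher every VA library lay above every VL library, and in 47 of those called lower every VA library lay below, while among all genes tested this held for 96 (0.581%) and 90 (0.545%). With each of the 14 libraries left out in turn, 125 of the genes called higher and 55 of those called lower were called every time. Of the genes called lower 4 lie on chromosome Y. The principal component that held most of the variance in the 500 most variable genes (23.0%) separated all VA from all VL libraries, and the next (15.3%) set VA replicate 3 apart.

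**Figure D1:**
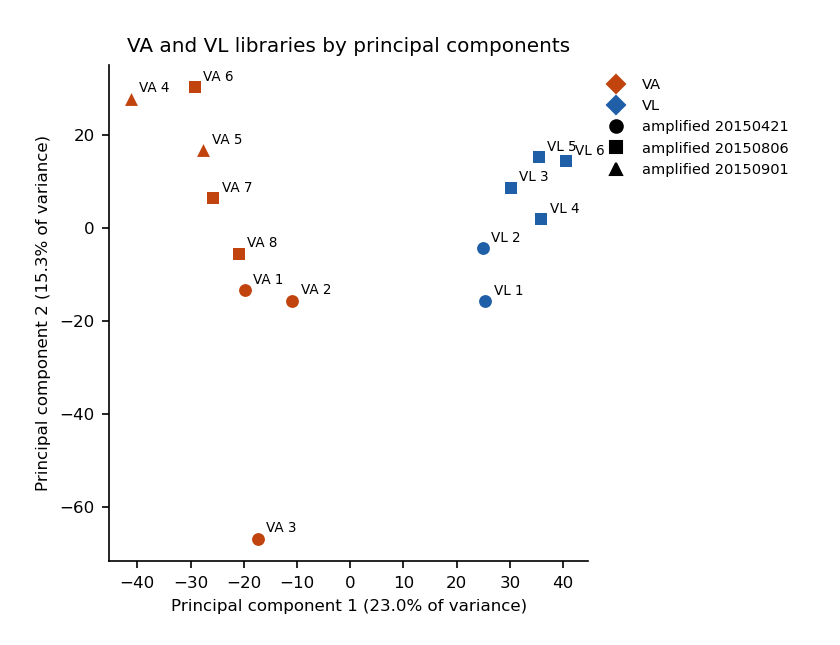
Principal components 1 (23.0% of variance) and 2 (15.3%) of log2 CPM in the 500 most variable genes, with 1 point per library, coloured by nucleus and shaped by the date of amplification. All 8 VA libraries lie left of 0 and all 6 VL libraries right of 0 on component 1, and VA replicate 3 lies at -66.8 on component 2.

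**Figure D2:**
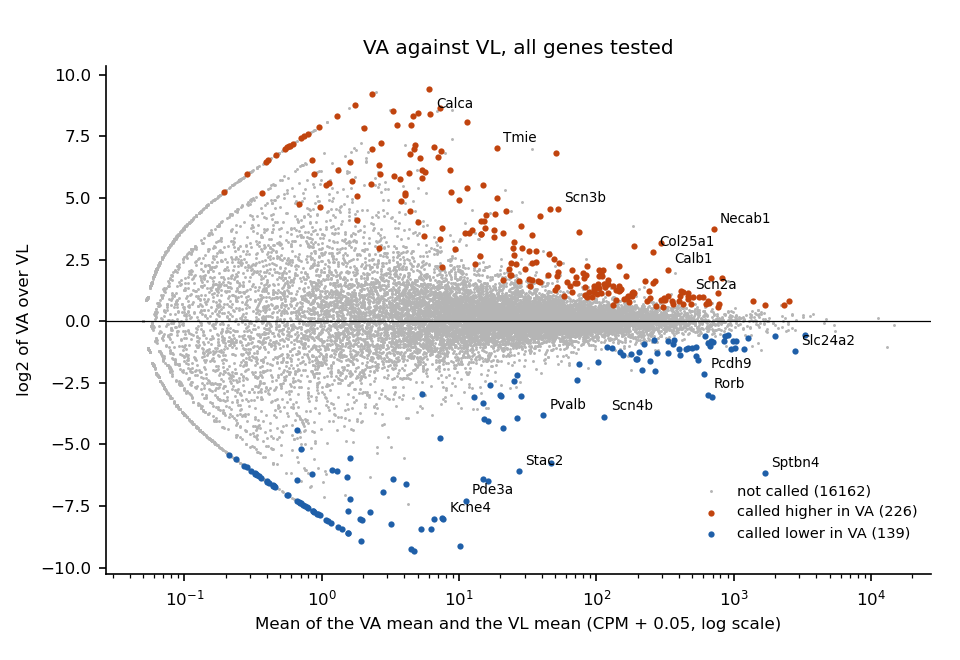
log2 of VA over VL (y axis) against the mean of the VA and VL means in CPM (x axis, log scale) for 16527 genes, with 226 called higher in VA and 139 called lower in VA coloured. Labelled genes are discussed in the text, and the arcs at low levels are genes with reads in 1 nucleus only or in few libraries.

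The markers given for the pair, Calca and Calb1 for VA and Kcne4 and Pde3a for VL, all lay on the side they were given for. They were chosen with earlier results of these data known, so their direction is not independent support. Calca, at chr7:114631478-114636357 (mm10), encodes the precursors of calcitonin and of the neuropeptide CGRP. It ran from 1.18 to 28.3 CPM in VA (median 11.6), and in VL it was at 0 in 5 libraries and at 0.177 CPM in VL replicate 1. No VA library overlapped VL, and the summed counts, 1689 in VA against 3 in VL, gave a ratio of 418 (95% counting interval 143 to 2028, Clopper-Pearson, adjusted p = 0.00221). Such intervals and floors cover counting error only, since amplified reads without molecular identifiers are not independent molecules. In bulk libraries a lower share of cells that express a gene and less RNA per cell cannot be told apart. Calb1, at chr4:15881264-15908064, encodes calbindin, a cytosolic calcium buffer. It ran from 314 to 933 CPM in VA (median 482) and from 68.6 to 250.2 CPM in VL (median 102), again without overlap, and was higher in VA by 2.09 ± 0.43 on the log2 scale (SE, adjusted p = 0.000792). Kcne4, at chr1:78816758-78820028, encodes a small accessory subunit that modulates voltage-gated potassium channels. It was at 0 in 6 of 8 VA libraries and reached 0.258 CPM at most, against 4.79 to 33.1 CPM in VL (median 13.4). The log2 of VA over VL was -8.02 ± 1.68 (adjusted p = 0.00181). Pde3a, at chr6:141249269-141507448, encodes a phosphodiesterase that breaks down cyclic AMP and is inhibited by cyclic GMP. It stayed between 0 and 0.322 CPM in VA (median 0.0624), against 1.83 to 63.7 CPM in VL (median 18.4). This is a log2 of -7.29 ± 1.27 (adjusted p = 3.5e-05). Both VL markers were thus nearly without reads in every VA library.

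Among the other large increases in VA, Hs3st3a1, a heparan sulfate 3-O-sulfotransferase, had 2304 counts in VA against 3 in VL, a ratio of 570 (95% counting interval 195 to 2766, adjusted p = 0.00269), and VA replicates 5 and 6 stood at only 0.178 and 0.131 CPM, just above the highest VL library at 0.0590 CPM. Tmie, known as a part of the mechanotransduction complex of hair cells, ran from 5.72 to 81.8 CPM in VA (median 32.5), against 0.0499 to 1.19 CPM in VL (median 0.116). On the log2 scale it differed by 7.02 ± 1.08 (adjusted p = 1.97e-06). Fnbp1l, an F-BAR protein that links membranes to actin, ran from 11.3 to 199 CPM in VA and from 0.100 to 11.02 CPM in VL, so that the lowest VA and highest VL libraries nearly met. The 12 largest increases also hold Scn3b, Necab1 and Slc8a2, described with their families, and Zcchc12 (log2 4.25 ± 0.60), Sphkap, an anchoring protein of protein kinase A (3.84 ± 0.50), Sertm1 (3.59 ± 1.03), Cntn5 (3.54 ± 0.76) and Glul (3.18 ± 0.47). Glul and Cntn5 lean on a single library each. Glul, glutamine synthetase, an enzyme of glia, stood at 3308 CPM in VA replicate 8, which is also high in oligodendrocyte markers, and at 95.2 to 251 CPM in the other VA libraries, against 35.5 to 85.5 CPM in VL. Without VA replicate 8 its log2 was 1.22 (adjusted p = 0.0183), and without VA replicates 3 and 8 it was 1.01 and no longer called (adjusted p = 0.0894). Cntn5, a contactin, stood at 129 CPM in VA replicate 3 and at 7.43 to 16.9 CPM in the other VA libraries, against 0.715 to 4.44 CPM in VL. Sertm1 lost its call when any of VA replicates 3, 4 or 6 or VL replicates 1, 2, 3, 4 or 6 was left out (log2 3.33 to 4.00, adjusted p up to 0.0991).

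Among the largest decreases in VA, Stac2, an adaptor of voltage-gated calcium channels, ran from 0.129 to 3.67 CPM in VA (median 0.296), against 21.8 to 103 CPM in VL (median 44.4). Its log2 was -6.09 ± 1.10 (adjusted p = 8.39e-05). Col24a1, a fibrillar collagen, stood at up to 1.67 CPM in VA and at 6.73 to 79.5 CPM in VL, and Ano3, of the anoctamin family, at up to 0.831 CPM in VA and 3.01 to 47.0 CPM in VL. Unc5d, a receptor of the netrin family of guidance cues, St3gal1, a sialyltransferase, and Galnt14, an enzyme that starts O-linked glycosylation, were lower by -4.07 ± 0.75, -3.95 ± 0.92 and -3.08 ± 0.78 on the log2 scale. With VA and VL fitted alone Galnt14 was not called, either without a block or with the amplification date as a block (adjusted p = 0.120 with the block). St3gal1 was not called with the recorded sex as a term (adjusted p = 0.152). Dio2, the deiodinase that activates thyroid hormone, ran from 0.0652 to 6.94 CPM in VA and from 11.9 to 120 CPM in VL (log2 -4.33 ± 1.22). The call of Dio2 was lost without VA replicate 2, 3, 4, 6 or 7 or VL replicate 3 (log2 -4.98 to -3.58, adjusted p up to 0.111), and that of Col24a1 without VA replicate 4 (adjusted p = 0.0512).

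**Figure D3:**
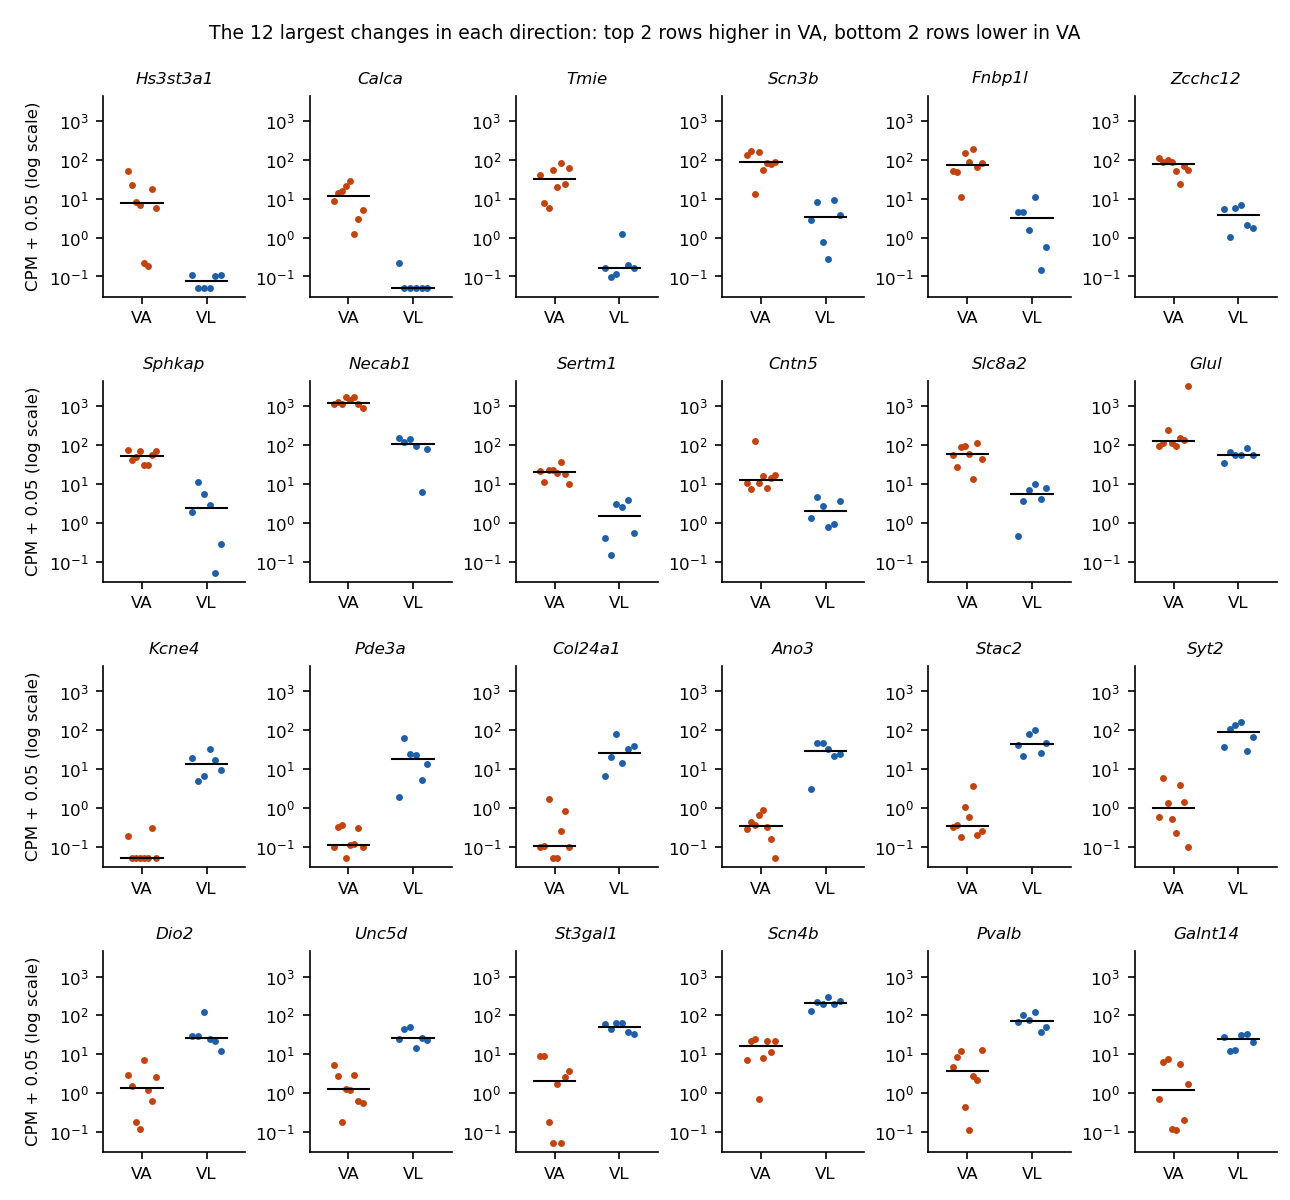
CPM plus 0.05 on a log scale in each library for the 12 largest changes in each direction, VA left of VL, with 1 point per library and a bar at the median. No VA library overlaps VL in any panel, since the choice of genes asked for this, and single libraries stand apart for Glul (3308 CPM, VA replicate 8) and Cntn5 (129 CPM, VA replicate 3).

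Calcium-binding proteins buffer or sense calcium after each spike. Of 24 genes in the list 21 were tested, 5 were called higher in VA, 2 lower and 14 neither, with a median log2 of 0.74 against 0.09 over all genes. Over all genes tested 1.37% were called higher and 0.841% lower, and the counts of this list and those below are to be read beside these shares. No list was tested as a set. Necab1, a neuronal calcium-binding protein at chr4:14952245-15149794, ran from 933 to 1749 CPM in VA (median 1227), against 6.01 to 157.8 CPM in VL (median 108). The log2 of VA over VL was 3.73 ± 0.68 (adjusted p = 9.22e-05). Its VL value of 6.01 CPM belongs to VL replicate 5, and the other 5 VL libraries stood at 80.8 to 157.8 CPM. Rcn1, a calcium-binding protein of the endoplasmic reticulum, averaged 19.2 ± 12.1 CPM in VA and 0.633 ± 1.40 CPM in VL (SD, n = 8 and 6). The remaining 2 called higher, named after their values were seen, were Camkv, a kinase-like protein that binds calmodulin, and Camk2n1, an inhibitor of CaM kinase II. On the lower side Pvalb, parvalbumin, at chr15:78191114-78206400, ran from 0.0593 to 12.5 CPM in VA (median 3.66), against 37.1 to 126 CPM in VL (median 71.6). This is a log2 of -3.83 ± 1.07 (adjusted p = 0.0318). The Pvalb ranges do not overlap, but the call was lost without VA replicate 1, 4, 5, 6 or 7 or VL replicate 4 (log2 -4.13 to -3.63, adjusted p up to 0.0671). Necab3 averaged 49.2 ± 35.0 CPM in VA and 154.5 ± 77.4 CPM in VL, and was not called in 8 of the 14 fits with 1 library left out, those without VA replicate 1, 2, 3, 4 or 6 or VL replicate 4, 5 or 6 (adjusted p up to 0.105). Calretinin, Calb2, was near 0 in both nuclei, at up to 1.54 CPM in VA and 0.177 CPM in VL (adjusted p = 0.243).

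Transcription factors set and keep the identity of a neuron. Of 53 transcription factors tested 4 were called higher in VA and 4 lower, with a median log2 of 0.21. Rorb, at chr19:18930605-19111196, had one of the 2 smallest adjusted p-values of the comparison: it ran from 68.8 to 285 CPM in VA (median 112), against 953 to 1324 CPM in VL (median 1167). On the log2 scale it differed by -2.98 ± 0.26 (adjusted p = 1.27e-16). The highest VA library held less than any VL library, and Rorb was also called on each of the amplification dates that held both nuclei (log2 -3.63, adjusted p = 0.00171, on 20150421 and -3.17, adjusted p = 0.000268, on 20150806). Bcl11a averaged 1.19 ± 1.24 CPM in VA and 9.36 ± 9.89 CPM in VL, and its call was lost without VA replicate 2, 3, 4, 6, 7 or 8 or VL replicate 3 or 4 (adjusted p up to 0.171). Ppargc1a, a coactivator of mitochondrial genes that was named after its values were seen, was also called lower (191 ± 65.8 CPM in VA, 470.5 ± 110 CPM in VL). Etv1 averaged 407 ± 181 CPM in VA and 130.2 ± 42.5 CPM in VL, and its call was lost without VA replicate 5 or 6 or any of VL replicates 1 to 5 (adjusted p up to 0.117). Foxp1 averaged 151 ± 165 CPM in VA and 53.8 ± 18.7 CPM in VL, with VA replicate 4 at 553 CPM, and without that library its log2 was 0.80 and not called (adjusted p = 0.148). Mef2a, named after its values were seen, averaged 825 ± 157 CPM in VA and 472 ± 78.0 CPM in VL. Tcf7l2, the factor that sets the excitatory identity of thalamic neurons, averaged 2069 ± 800 CPM in VA and 1315 ± 394 CPM in VL with overlapping ranges. Its log2 was 0.65 ± 0.16 (adjusted p = 0.00956), and the gene was not called without VL replicate 1 or 2 (adjusted p up to 0.0761). Of the 8 markers of thalamic projection neurons it was the only one called, and the median log2 of the 8 was -0.10.

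Voltage-gated sodium channels, which carry the upstroke of the spike, gave calls in both directions, 3 higher and 1 lower in VA among 11 tested (median log2 -0.18). Of their beta subunits, which set gating and membrane density, Scn3b was called higher and Scn4b lower. Scn3b ran from 13.4 to 176 CPM in VA (median 88.4), against 0.238 to 9.12 CPM in VL (median 3.34). The log2 of VA over VL was 4.56 ± 0.58 (adjusted p = 5.86e-09). Scn4b, known for its part in resurgent sodium current, ran from 0.652 to 24.2 CPM in VA (median 16.4), against 133 to 304 CPM in VL (median 210). This is a log2 of -3.87 ± 1.02 (adjusted p = 0.0184). Of the pore-forming subunits Scn2a averaged 628 ± 120 CPM in VA and 307 ± 41.3 CPM in VL without overlap (log2 1.03 ± 0.16, adjusted p = 2.65e-06). Scn3a, named after its values were seen, averaged 78.0 ± 26.0 CPM in VA and 38.6 ± 11.8 CPM in VL, and lost its call without VA replicate 3 or 4 or VL replicate 1, 3 or 4 (adjusted p up to 0.0913).

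Among calcium channels, which in thalamus shape bursts and transmitter release, 2 of 21 tested were called higher and 0 lower (median log2 0.02). Cacna1e, the pore of the R-type channel, stood at 0.193 CPM in VA replicate 3 and at 17.3 to 70.0 CPM in the other 7 VA libraries, against 0.301 to 3.16 CPM in VL. On the log2 scale it differed by 4.99 ± 0.71 (adjusted p = 2.36e-07). Cacng4, a transmembrane auxiliary subunit of AMPA receptors, averaged 181 ± 80.7 CPM in VA and 42.9 ± 19.1 CPM in VL. Of 27 voltage-gated potassium channels tested 1 was called higher and 2 lower (median log2 -0.03). Kcnc1, a channel subunit that lets neurons repolarise quickly and fire at high rates, ran from 435 to 555 CPM in VA (median 498), against 712 to 1105 CPM in VL (median 868), without overlap (log2 -0.82 ± 0.18, adjusted p = 0.00227). Of 13 potassium channel auxiliary subunits tested Kcne4 was the only call, and of 21 other potassium channels Kcnt2, a sodium-activated channel, was (89.2 ± 34.4 CPM in VA, 17.2 ± 15.3 CPM in VL), although not without VL replicate 1, 4, 5 or 6 (adjusted p up to 0.0706). In the list of HCN, chloride and TRP channels 2 of 21 were called higher and 1, Ano3, lower (median log2 -0.03). Of the higher calls Clic5 rests on VA replicate 2, at 10.8 CPM against at most 0.197 CPM in the other VA libraries and 0 in all VL libraries, and was not called without it (adjusted p = 0.407). Trpc5 ran from 0.196 to 162 CPM in VA and from 0 to 9.36 CPM in VL and was not called without VA replicate 6 or VL replicate 1, 2, 4, 5 or 6 (adjusted p up to 0.108).

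**Figure D4:**
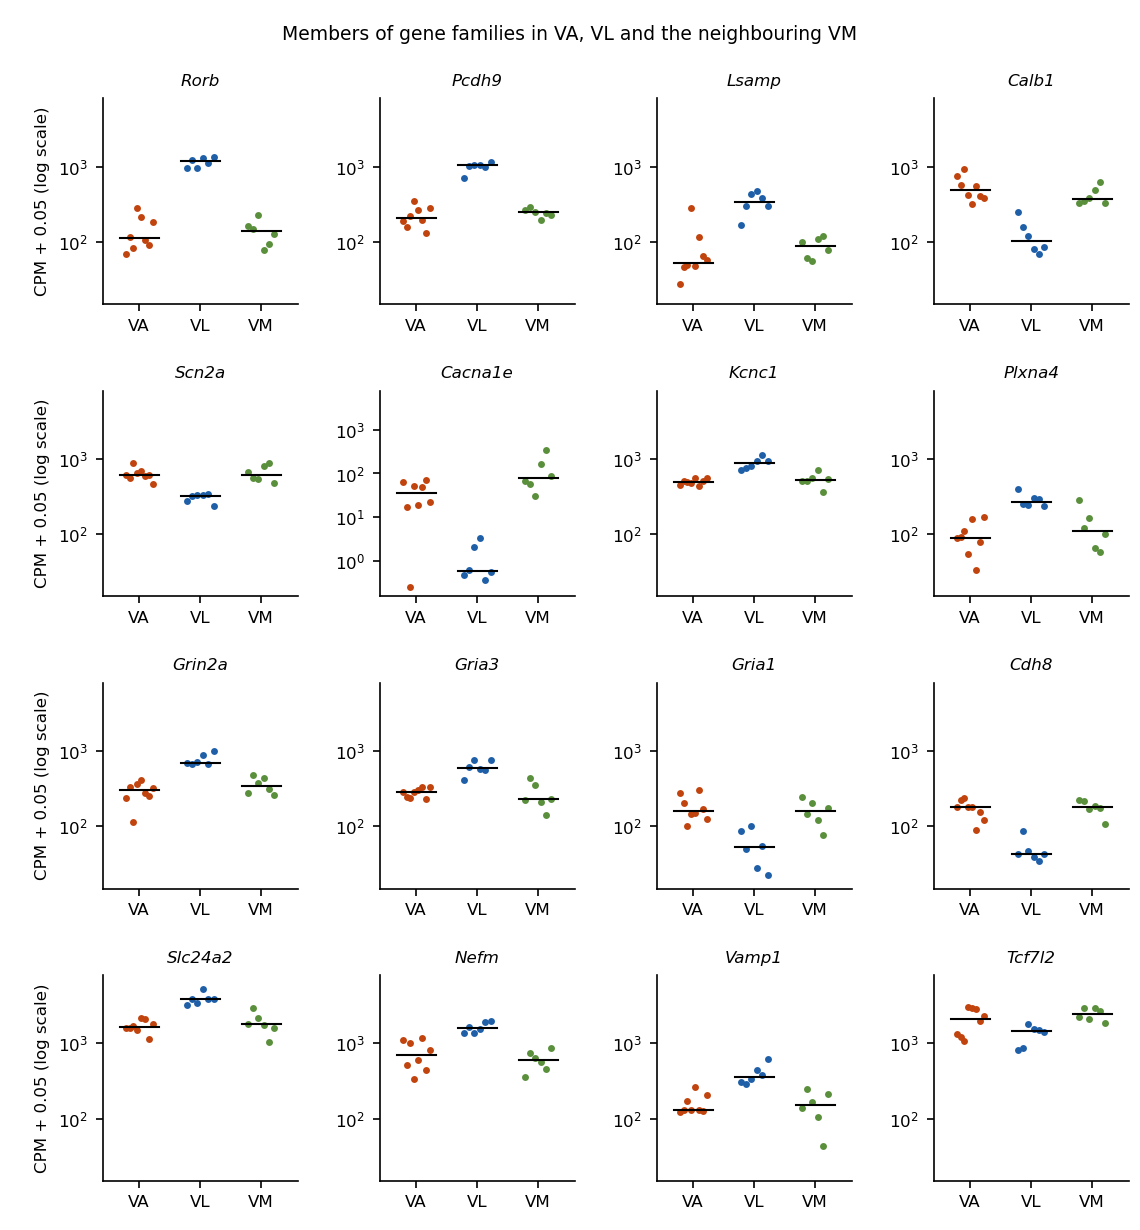
CPM plus 0.05 on a log scale in each library for 16 members of the gene families described in the text, in VA, VL and VM, with 1 point per library and a bar at the median. Rorb runs from 68.8 to 285 CPM in VA and from 953 to 1324 CPM in VL, and Cacna1e, on a longer axis, has VA replicate 3 at 0.193 CPM among VA libraries that otherwise reach 17.3 CPM or more.

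Receptors for fast transmitters changed by subunit. Of 24 glutamate receptor genes tested 2 were called higher and 2 lower (median log2 0.34), each called in every fit with 1 library left out. Grin2a, the NMDA receptor subunit of mature synapses, ran from 116 to 408 CPM in VA (median 300), against 664 to 1006 CPM in VL (median 702). Its log2 was -1.42 ± 0.23 (adjusted p = 4.74e-06). Grin2d, an NMDA receptor subunit with slow kinetics, averaged 164 ± 109 CPM in VA and 45.9 ± 32.5 CPM in VL with overlapping ranges (log2 1.83 ± 0.41, adjusted p = 0.00325). With VA and VL fitted alone Grin2d was not called, either without a block or with the amplification date as a block (log2 1.70, adjusted p = 0.0699 with the block). Among AMPA receptor subunits Gria3 averaged 282 ± 39.2 CPM in VA and 609 ± 129 CPM in VL, and Gria1 averaged 185 ± 72.1 CPM in VA and 57.5 ± 31.4 CPM in VL, both without overlap. All 20 GABA and glycine receptor genes of their list were tested, and 4 were called higher and 0 lower (median log2 0.20). Gabrg3 averaged 56.7 ± 20.2 CPM in VA and 10.98 ± 10.6 CPM in VL, and was not called without VL replicate 2 or 6 (adjusted p up to 0.0556). Gabra2, named after its values were seen, was not called in 9 of the 14 fits with 1 library left out (without VA replicate 1, 3, 4 or 6 or any of VL replicates 2 to 6, adjusted p up to 0.131), and Gabrq, at up to 12.05 CPM in VA and 0.1496 CPM in VL, in 4 (without VA replicate 5 or VL replicate 4, 5 or 6, adjusted p up to 0.107).

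Receptors and peptides of slower signalling act mostly through G proteins. Of 24 monoamine, acetylcholine and adenosine receptors 1 was called higher and 0 lower (median log2 0.48). Htr7, a serotonin receptor that raises cyclic AMP, ran from 13.3 to 64.0 CPM in VA (median 39.7), against 4.34 to 12.2 CPM in VL (median 7.604). The log2 of VA over VL was 2.34 ± 0.62 (adjusted p = 0.0186), and Htr7 was not called without VL replicate 3 or 4 (adjusted p up to 0.0564). Of 16 neuropeptide genes tested 2 were called higher, Calca and Nppc, the precursor of C-type natriuretic peptide, which had 181 counts in VA and 0 in VL, at least 44.8-fold higher by a floor of 3 counts over the VL libraries together. Nppc ran from 0 to 5.05 CPM in VA (median 0.543), so the ranges met at 0. It was not called with edgeR's newer dispersion method, nor without the libraries with Y-linked reads. Of 20 peptide, opioid and cannabinoid receptors 2 were called higher and 1 lower, with a median log2 of 1.03. Oxtr, the oxytocin receptor, had 934 counts in VA and 2 in VL, a ratio of 347 (95% counting interval 95.7 to 2866), and was not called without VA replicate 4 or VL replicate 2, 4, 5 or 6 (adjusted p up to 0.0604). Oprk1, the kappa opioid receptor, had 562 counts in VA and 3 in VL, a ratio of 139 (95% counting interval 47.3 to 676), but its median in VA was 0.0549 CPM and 3 VA libraries were at 0. Like Nppc, Oprk1 was not called with edgeR's newer dispersion method. Npy2r, the call on the lower side, rests on VL replicate 1 at 7.73 CPM, the other VL libraries being at 0, and without that library its log2 was 2.18 (adjusted p = 0.545).

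The release machinery turns calcium entry into vesicle fusion. Of 44 genes tested 4 were called higher and 3 lower (median log2 0.12). Syt2, a fast calcium sensor of release, ran from 0.05002 to 5.82 CPM in VA (median 0.915), against 29.7 to 167 CPM in VL (median 90.0). This is a log2 of -5.76 ± 1.49 (adjusted p = 0.0150). Vamp1, a vesicle SNARE protein, averaged 160 ± 51.3 CPM in VA and 395 ± 124 CPM in VL without overlap, and its call was lost without VL replicate 6 (adjusted p = 0.0746). Complexins, which clamp and speed fusion, differed in direction: Cplx2 ran from 0.374 to 87.7 CPM in VA (median 5.64), against 0.100 to 0.407 CPM in VL (log2 6.14 ± 1.12, adjusted p = 9.11e-05), while Cplx1, named after its values were seen, ran from 319 to 1132 CPM in VA and from 1150 to 1768 CPM in VL (log2 -1.07 ± 0.25, adjusted p = 0.0037). Syt17, higher in VA by 3.53 ± 0.95, was not called without VA replicate 3 or VL replicate 3, 4 or 5 (adjusted p up to 0.138), and the remaining higher calls, named after their values were seen, were Unc13b and Syt4. The vesicular glutamate transporters were not called: Slc17a6 (VGLUT2), the main one of thalamus, averaged 1113 ± 325 CPM in VA and 869 ± 111 CPM in VL (adjusted p = 0.255), and Slc17a7 (VGLUT1) ran from 26.9 to 117 CPM in VA and from 124 to 457 CPM in VL (log2 -1.98 ± 0.70, adjusted p = 0.116), without overlap but short of the threshold. In a fit of the libraries of 20150806 alone, Slc17a7 was called (log2 -1.94, adjusted p = 0.00525). Of 18 secreted synaptic organisers 3 were called higher and 0 lower (median log2 0.61), among them C1ql3 (14.0 ± 18.5 CPM in VA, 1.00 ± 0.83 CPM in VL) and Cbln1 (139 ± 117 CPM in VA, 11.3 ± 10.2 CPM in VL). Cbln1 was not called without VA replicate 4 or VL replicate 2, 4, 5 or 6 (adjusted p up to 0.0618). The other one called, named after its values were seen, was Cpne7.

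Adhesion molecules hold synapses and axons together. Of 53 synaptic and cell adhesion genes tested 9 were called higher and 1 lower, against 1.37% and 0.841% of all genes tested, and the list median was 0.18 against 0.09 over all genes. Of the 9, 6 were called in every fit with 1 library left out. The 2 with the largest log2 were Cntn5 and Lrrtm4, and Lrrtm4 was not called in 11 of the 14 fits with a library left out (all but those without VA replicate 2, 5 or 6, adjusted p up to 0.127). The others, named after their values were seen, include 2 neural cell adhesion molecules, Ncam1 (383 ± 164 CPM in VA, 131 ± 38.5 CPM in VL) and Ncam2 (74.1 ± 24.6 and 28.7 ± 7.77 CPM in VA and VL), their relative Chl1 (341 ± 111 CPM in VA, 110.3 ± 47.7 CPM in VL), and Negr1, Cadm1, Tenm1 and Lrrtm2. Cadm1 was not called without VA replicate 4 or VL replicate 1, 5 or 6 (adjusted p up to 0.149), nor Lrrtm2 without VA replicate 5 or 6 or any of VL replicates 1 to 5 (adjusted p up to 0.0994). Lsamp, the limbic system-associated membrane protein, went the other way: 27.7 to 282 CPM in VA (median 53.1), against 170.4 to 476 CPM in VL (median 338). On the log2 scale it differed by -1.99 ± 0.24 (adjusted p = 4.48e-10), the overlap being due to VA replicate 4 at 282 CPM. Of 23 cadherins and protocadherins 2 were called higher, Cdh8 (log2 1.81 ± 0.38) and Pcdh10 (1.01 ± 0.24), and 1 lower (median log2 0.69). That 1, Pcdh9, shared the smallest adjusted p-value with Rorb: it ran from 131 to 352 CPM in VA (median 206), against 714 to 1152 CPM in VL (median 1034). Its log2 was -2.15 ± 0.19 (adjusted p = 1.27e-16), and it too was called on each date alone.

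Of 45 axon guidance genes tested 7 were called higher and 3 lower (median log2 -0.06). Receptors fell on both sides: Nrp2, a semaphorin receptor, averaged 10.4 ± 8.99 CPM in VA and 0.140 ± 0.171 CPM in VL (log2 6.13 ± 1.42), while Plxna4, which pairs with neuropilins, averaged 98.0 ± 47.1 CPM in VA and 287 ± 61.0 CPM in VL (log2 -1.55 ± 0.26, adjusted p = 1.15e-05) without overlap. Netrin receptors of the Unc5 family were lower, Unc5d as given above and Unc5c, named after its values were seen, at 86.97 ± 34.7 CPM in VA and 208 ± 53.2 CPM in VL. The Slit receptors Robo1 and Robo2, also named after their values were seen, were higher, Robo2 at 126 ± 36.6 CPM in VA and 32.9 ± 21.5 CPM in VL without overlap. The ligand Efnb3 ran from 0 to 75.8 CPM in VA and from 0 to 0.401 CPM in VL and was not called in 8 of the 14 fits with a library left out (without VA replicate 3 or 7 or any 1 VL library, adjusted p up to 0.124), and Sema3e, Plxnc1 and Epha5, named after their values were seen, complete the higher calls. Sema3e was not called without VA replicate 4 (adjusted p = 0.0547), nor Epha5 without VL replicate 5 or 6 (adjusted p up to 0.0539). Of 30 genes of heparan sulfate and extracellular matrix 2 were called higher and 2 lower (median log2 0.32). Col25a1, a transmembrane collagen, ran from 302 to 679 CPM in VA (median 418), against 32.3 to 100.5 CPM in VL (median 61.4). The log2 of VA over VL was 2.80 ± 0.42 (adjusted p = 6.6e-07). Frem3, a basement membrane protein, averaged 28.6 ± 20.1 CPM in VA and 1.71 ± 2.72 CPM in VL. On the lower side Hapln4, which links hyaluronan to proteoglycans of perineuronal nets, averaged 121 ± 75.2 CPM in VA and 370 ± 102 CPM in VL, was not called without VA replicate 3 or 4 or VL replicate 4 (adjusted p up to 0.0636), and Spock1 averaged 612 ± 101 CPM in VA and 1082 ± 258 CPM in VL.

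Among 24 genes of neurofilaments and axon cytoskeleton 2 were called higher and 5 lower (median log2 0.05). Nefm, the medium neurofilament subunit of thick axons, ran from 338 to 1157 CPM in VA (median 699), against 1367 to 1985 CPM in VL (median 1589). This is a log2 of -1.14 ± 0.27 (adjusted p = 0.00661). Nefm was called in every fit with 1 library left out, but not without the libraries with Y-linked reads nor with recorded sex as a term. The other neurofilament calls, named after their values were seen, were Nefh and Ina, and Map1a, a microtubule-associated protein, was called lower as well. Nefh was not called in 12 of those fits, all but the ones without VA replicate 3 or VL replicate 3 (adjusted p up to 0.0968). Ina was not called without VA replicate 1, 2, 5 or 7 or any of VL replicates 3 to 6 (adjusted p up to 0.0809), nor Map1a without VA replicate 7 or VL replicate 2 or 6 (adjusted p up to 0.0544). Sptbn4, a spectrin of the axon initial segment, stood at 24.3 to 84.1 CPM in VA and 33.6 to 93.3 CPM in 5 VL libraries, with VL replicate 1 alone at 19600 CPM, and without that library its log2 was -0.33 (adjusted p = 0.882). Of the higher calls Gap43, a growth-associated protein of axons, averaged 601 ± 143 CPM in VA and 321 ± 56.6 CPM in VL without overlap, and Tubb2b, a beta tubulin, 32.8 ± 18.7 CPM in VA and 3.10 ± 2.91 CPM in VL. Calcium pumps and exchangers gave 1 call each way in 17 tested (median log2 0.09): Slc8a2, a sodium-calcium exchanger, at 13.5 to 112 CPM in VA (median 57.6) and 0.413 to 10.1 CPM in VL (median 5.42), and Slc24a2, a potassium-dependent exchanger, at 1152 to 2173 CPM in VA (median 1638) and 3226 to 5272 CPM in VL (median 3820). Their log2 values were 3.51 ± 0.60 (adjusted p = 2.34e-05) and -1.20 ± 0.20 (adjusted p = 1.38e-05), both without overlap.

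Of 28 enzymes that make or break cyclic nucleotides 3 were called higher and 2 lower (median log2 0.16). Of the phosphodiesterases, Pde4b (256 ± 91.4 CPM in VA, 72.1 ± 46.6 CPM in VL) and Pde1b (121 ± 48.5 CPM in VA, 45.6 ± 9.44 CPM in VL) were higher, as was Pde10a, named after its values were seen, which was not called without VA replicate 2 or 4 or VL replicate 4 or 6 (adjusted p up to 0.0909). Pde3a was lower, and so was the calcium-stimulated adenylyl cyclase Adcy1 (454 ± 150 CPM in VA, 838 ± 111 CPM in VL, log2 -0.88 ± 0.22, adjusted p = 0.0099). Of 35 genes of G protein signalling and protein kinase C 2 were called higher and 1 lower (median log2 0.22), and none of the 3 was called in every fit with a library left out. Rasgrf2 was not called without VA replicate 2, 5, 6 or 7 or any of VL replicates 2 to 6 (adjusted p up to 0.118), and Rgs17 without VA replicate 5 or 6 or VL replicate 1, 2 or 5 (adjusted p up to 0.157). Rgs8, the call on the lower side, was not called without VA replicate 1, 2, 3, 4 or 7 or any of VL replicates 3 to 6 (adjusted p up to 0.148). A pair of lists gave no call with edgeR's test: 0 of 76 oxidative phosphorylation genes (median log2 -0.01, 2 at an unadjusted p under 0.05) and 0 of 15 immediate early genes (median log2 -0.43, 3 at an unadjusted p under 0.05). Tnnt1, a troponin, ran from 4.00 to 63.2 CPM in VA and from 18.2 to 178 CPM in VL and was not called (adjusted p = 0.476).

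Of the 10 genes with the smallest p-values 4 lie outside the naming rule and were picked after their values were seen. Ntrk3, the receptor of neurotrophin 3, ran from 3.02 to 420 CPM in VA (median 51.3), against 0.0678 to 3.59 CPM in VL (median 0.310). On the log2 scale it differed by 6.84 ± 0.78, with the lowest VA library below the highest VL library. Jam2, a junctional adhesion molecule, averaged 332 ± 96.9 CPM in VA and 39.9 ± 22.7 CPM in VL (log2 3.06 ± 0.41) without overlap. Timp2, an inhibitor of matrix metalloproteinases, averaged 1258 ± 474 CPM in VA and 372 ± 109 CPM in VL, and Ptprd, a receptor phosphatase of presynaptic sites, averaged 589 ± 84.8 CPM in VA and 262 ± 45.7 CPM in VL, both without overlap. These 4 were called in every fit with 1 library left out.

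VM stood on the side of VA for most of the genes that differed. On the mean log2 CPM it lay nearer to VA than to VL in 200 of the 226 genes called higher in VA (88.5%) and in 111 of the 139 called lower (79.9%), against 52.8% of all genes tested. Rorb averaged 140 ± 53 CPM in VM (n = 6), Pcdh9 246 ± 32.6 CPM, Calb1 417 ± 116.5 CPM and Necab1 711 ± 261 CPM (SD). On the mean log2 CPM each of these 4 lay closer to VA than to VL, while Calca at 4.197 ± 5.96 CPM lay between them. No test of this placing was made, and VM shares the amplification date 20150901 with VA and not with VL. Among the 24 groups of the series, VL had the highest mean in 28 of the 139 genes called lower in VA (20.1%, against 2.89% of all genes tested) and was among the top 6 in 106 of them. VA had the highest mean in 13 of the 226 genes called higher (5.75%, against 3.04% of all genes tested) and was among the top 6 in 69. The choice of these genes by the difference between VA and VL in itself favours high ranks of the higher nucleus. The shares over all genes are therefore no even baseline, and the ranks are a description only. Among the genes given here Calb1, at 542 ± 211 CPM, and Glul, through VA replicate 8, had their highest mean in VA, while Pvalb, Kcnc1, Adcy1, Col24a1, Cplx1, Map1a and, through VL replicate 1, Sptbn4 had theirs in VL. Rorb was second highest in VL and second lowest in VA, which with VM had the lowest 2 means of all groups. Calca by contrast had the ninth highest mean in VA, and stood at 92.2 ± 43.4 CPM in AM, the group with the highest mean. For the 12 largest increases VL had ranks 17 to 24 of the 24 groups, while VA ran from rank 1 (Glul) to rank 21 (Sphkap). Scn3b, Fnbp1l and Zcchc12 had ranks 18, 17 and 16 in VA, and Cntn5 and Slc8a2 rank 5. An increase in VA is thus a level above VL, and not always a high level in the series.

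**Figure D5:**
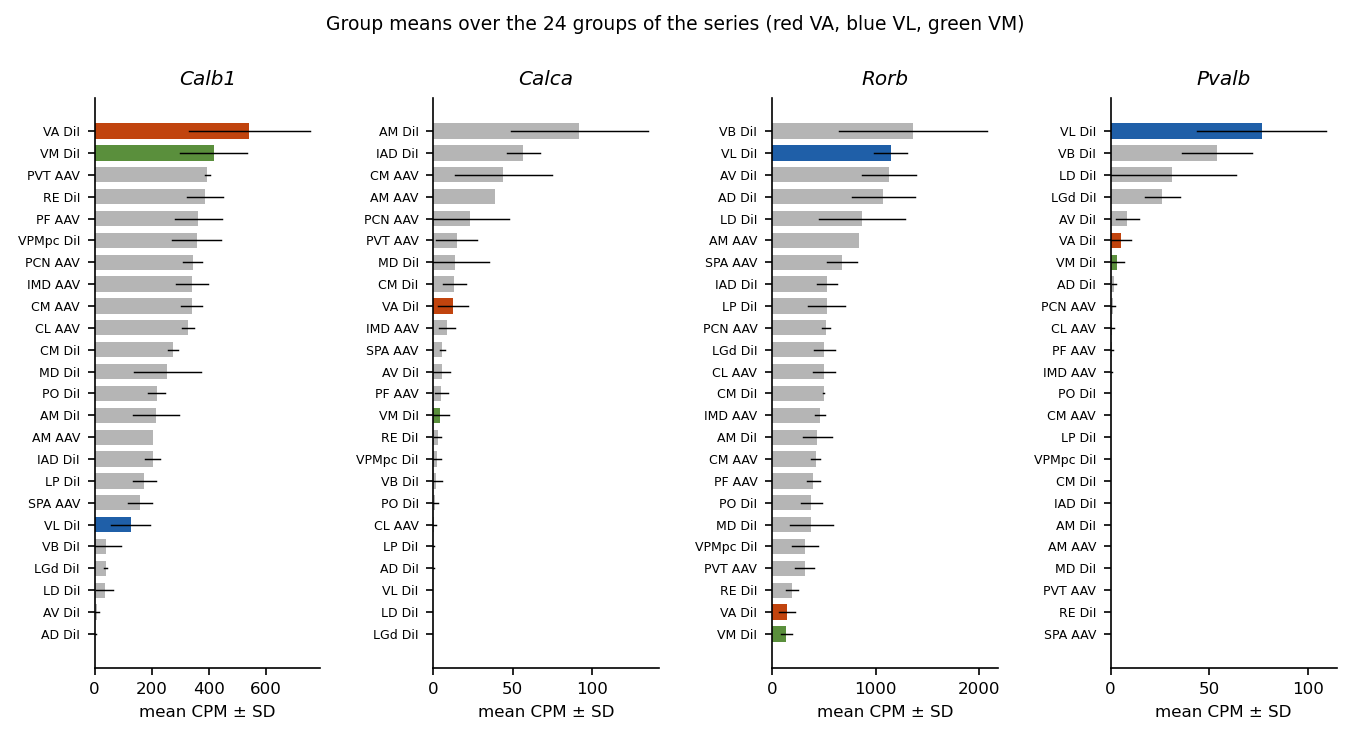
Mean CPM (bars) and 1 SD on either side (lines, none for a group of 1 library) of Calb1, Calca, Rorb and Pvalb in the 24 groups of the series, each labelled by nucleus and tracer and ordered by the mean. Calb1 is highest in VA (542 CPM) and Pvalb in VL (76.4 CPM), Rorb is lowest in VM and VA, and Calca is ninth in VA.

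The libraries were amplified on 3 dates, 20150421 (3 VA, 2 VL), 20150806 (3 VA, 4 VL) and 20150901 (2 VA, 0 VL), so the last date gives no value of its own. Within 20150421 there were 2 genes called higher (0.0159%) and 2 lower (0.0159%), namely Col25a1 and Necab1 higher and Pcdh9 and Rorb lower, and within 20150806 there were 61 (0.484%) and 52 (0.413%). A term for the difference between these dates in the effect of nucleus was called in 0 of 11968 genes (0.0%) by edgeR's test, with 510 (4.26%) at an unadjusted p under 0.05. In the 3 sets of animals that gave both nuclei, with the animal as a block, 7 genes were called higher (0.0558%) and 11 lower (0.0877%). Among them were Tmie, Necab1, Col25a1, Calb1 and Jam2 on the higher side and Rorb, Pcdh9, Lsamp, Pvalb, Scn4b, Syt2, Stac2, Pde3a, Dio2 and Slc24a2 on the lower. Of the 24 largest changes 8 were called there and 16 were not, among them Calca (log2 7.85, adjusted p = 0.320), Kcne4 (log2 -8.63, adjusted p = 0.123), Scn3b and Hs3st3a1. With the amplification date as a block, in a fit of the VA and VL libraries alone, 23 of the 24 were called, all but Galnt14. Of the other genes given above, C1ql3, Syt17, Lrrtm4, Grin2d, Foxp1, Rgs17, Rgs8, Necab3, Bcl11a, Sptbn4, Gabra2, Ncam2, Cadm1, Scn3a, Robo1, Pde10a and Ina were not called with that block (adjusted p = 0.0592 to 0.677). The same libraries fitted without the block gave 132 higher and 70 lower calls, against 140 and 95 with it. Galnt14, C1ql3, Syt17, Lrrtm4, Grin2d, Foxp1, Rgs17, Rgs8, Necab3 and Bcl11a were not called without the block either, so these losses are not particular to it. Without VL replicates 5 and 6, the libraries with Y-linked reads, 96 genes were called higher (0.581%) and 58 lower (0.351%). Of the 24 largest changes 19 remained called, all but Sertm1, Col24a1, Scn4b, Pvalb and Galnt14 (adjusted p = 0.0517 for Scn4b and Pvalb). Of all 84 genes named by the rule 36 lost their call there. These include Nrp2, Rcn1, Frem3, Tubb2b, Cacng4, Gria1, Gap43, Kcnc1, Adcy1 and Nefm, which were called in every fit with 1 library left out. Without VA replicates 3 and 8, the libraries highest in oligodendrocyte markers, 212 were called higher (1.28%) and 71 lower (0.43%), and Syt2, Glul, Cntn5 and Dio2 were no longer called. With the recorded sex as a term, which the RNA partly contradicts, 42 genes were called higher (0.335%) and 24 lower (0.192%). That fit held the VA and VL libraries alone, without the library of mixed sex. Of 77 genes named by the rule and tested there 40 lost their call. Among them were Scn2a, Lsamp, Cplx2, Grin2d, Gria3, Pcdh10, Kcnc1, Adcy1, Gap43 and Nefm.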

How the data were processed

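Whole-number read counts per gene were deposited by the authors for 120 libraries and 16538 genes, with a table of cells, animal, recorded sex, age, genotype, tracer and amplification date, which hold other measures as the authors recorded them. Per the submitters' processing notes, cutadapt 1.16, STAR 2.5.3a, featureCounts 1.52 and mm10 were used; their settings are not given in the sources used here. Per the labels' protocols, RNA of hand-picked cells was amplified with a kit that keeps no strand, so reads of overlapping or antisense genes cannot be told apart, and reads shared between near-identical genes are uncertain.

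Counts were fitted with edgeR 4.0.16 (R 4.3.3): TMM scaling, filterByExpr (minimum count 10, minimum total 15, leaving 16527 genes), trended dispersion and a quasi-likelihood F test over the 24 groups of nucleus, tracer and target, with VA over VL as the contrast and Benjamini-Hochberg adjusted p under 0.05 as a call. All adjusted p-values are over all genes tested. The standard error is the size of the log2 value over the square root of F. Fits with a library left out keep the dispersion trend of the whole fit. So do those without the animal not recorded as wild type, the libraries with Y-linked reads or those highest in oligodendrocyte markers. Fits of VA and VL alone, of a date alone, of recorded females alone, with a block or with recorded sex do not. They were filtered and fitted on their own libraries, so their counts of calls are not on the same footing. CPM use TMM-scaled library sizes, and log2 CPM a prior count of 2. Alternatives used DESeq2 1.42.0, other scalings, filters, blocks and subsets of libraries. On simulated counts for 16138 genes, 50 of 50 genes raised 4-fold, 10 of 50 raised 2-fold, 15 of 50 at 0.5 and 49 of 50 at 0.25 of their level were called, with 10 of 15938 unchanged genes. The simulated counts were independent, with a set dispersion and equal levels in all groups, and only genes averaging 50 counts or more were changed, in VA. They held no shared animals, dates or libraries standing apart, so these shares are not error rates of the comparison itself.

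The genes named are, per direction, the 12 called genes with the largest log2 values whose ranges do not overlap and whose higher nucleus averages 10 CPM or more, up to 2 called members per list and direction, and 11 genes known as markers or of interest for these nuclei. Gene models without a name were left out. The comparison, the markers and the lists were chosen with earlier results of these data known. Coordinates are from GENCODE vM21 (GRCm38), which matched 16501 of the gene IDs. Promoters are from RefSeq. Within each nucleus, replicates are libraries of separate animals or pools. The p-values of the main fit rest on a spread within groups estimated over all 24 groups, and not on VA and VL alone. With VA and VL fitted alone, 132 genes were called higher and 70 lower. The main fit also treats libraries as independent, although some animals gave both nuclei. With the animal as a block, in the fewer libraries of those animals, 7 were called higher and 11 lower. Some genes that the rule or the lists hold are not reported here.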

Additional observations from a re-analysis of the deposited data

Results flagged for a closer look

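In each nucleus the highest and lowest library for 117 genes and for total counts, genes detected and cells were set against the others by the gap to the nearest library over the whole range (Dixon's test, 95% critical value), which chance passes in about 1 in 20 groups. Of 240 groups 32 passed. All values here are CPM.

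In VA, replicate 3 stood apart in 6 genes, high for Cntn5 (128.6, others 7.43 to 16.9) and Nefh (793, others 168 to 330) and low for Cacna1e (0.193, others 17.3 to 70.0), Scn3b (13.4, others 56.0 to 176), Grin2a (116.1, others 236 to 408) and Ncam2 (20.4, others 57.7 to 96.0). VA replicate 3 is also the library highest in oligodendrocyte markers, and their part in these values was not tested. VA replicate 5 was low for Rcn1 (0.653), Tubb2b (4.09), Gabrg3 (21.3) and Camkv (5.28). VA replicate 4 was high for Foxp1 (553) and Cadm1 (238.5) and low for Scn4b (0.652). VA replicate 2 was high for Clic5 (10.8), and VA replicate 8 for Glul (3308).

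In VL, replicate 1 stood apart in 8 genes, high for Sptbn4 (19600, others 33.6 to 93.3), Npy2r (7.73, others 0), Calca (0.177, others 0) and Rcn1 (3.48), and low for Slc8a2 (0.413), Lrrtm4 (0.531), Pcdh9 (713.9, others 999 to 1152) and Ano3 (3.01, others 21.5 to 47.0). VL replicate 5 was low for Necab1 (6.01), Etv1 (48.4) and Ncam2 (13.8). VL replicate 4 was high for Tmie (1.19) and Slc24a2 (5272), VL replicate 3 was high for Trpc5 (9.36) and low for Nefh (416), VL replicate 2 was high for Cdh8 (85.6), and VL replicate 6 for Pcdh10 (363).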

How the results depend on the processing

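Counts of genes called higher and lower in VA, 226 and 139 as reported, depended on the fit. They were 223 and 157 with RLE size factors, 225 and 144 with no filter on low counts, 293 and 156 with DESeq2 on VA and VL alone, 401 and 226 with edgeR's newer dispersion method, and 132 and 70 with VA and VL fitted alone. Of the 365 reported calls 270 were called again with the newer method and 362 with RLE size factors. With VA and VL alone only 257 of the 365 were tested, and 164 were called again with edgeR and 231 with DESeq2. Leaving out 1 library gave 164 to 241 and 92 to 130, the lowest count of lower calls being without VA replicate 6. With the amplification date as a block, on the VA and VL libraries alone, there were 140 and 95, and with that block on the dates that hold both nuclei 132 and 100. Recorded sex as a term, on the VA and VL libraries without the mixed one, left 42 and 24.

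The replicate numbers do not pair the libraries (correlations of deviations from -0.08 to 0.18 over 6 numbers, 2 of which share an animal, and 2 VL libraries correlated best with their own number), and the replicate block gave 91 and 76. Alternatives chosen after the data were seen gave 7 and 11 with the animal as a block, 2 and 2 on 20150421 alone, 61 and 52 on 20150806 alone, 173 and 79 without the animal recorded as 33.7-Gad2, 96 and 58 without the libraries with Y-linked reads, 212 and 71 without the 2 libraries highest in oligodendrocyte markers, and 3 and 3 in recorded females alone. The smaller subsets hold fewer libraries, and those of a date, of shared animals or of recorded females do not keep the dispersion trend of the whole fit. Otherwise the cause was not tested. Of the 84 genes named by the rule, 3 reversed: Tnnt1 on 20150421 alone (log2 0.54), Bcl11a in recorded females alone (0.058) and Npy2r without VL replicate 1 (2.18, the range with 1 library left out being -5.77 to 2.18). Of all 365 calls, 362 kept their sign without VL replicate 1 and 361 without the libraries with Y-linked reads. Summing libraries of one animal was not run, since no animal gave 2 libraries of one group. Genes under a few CPM rest on few reads, and amplified reads understate their error.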
